A study of Mus musculus with 14 samples.

Results

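The genes described here are 10 genes of MHC class II antigen presentation, out of 22116 named entries in a table of read counts from mouse spleen. They were taken by symbol, and the list was chosen with earlier results of these data known. H2-Aa, H2-Ab1 and H2-Eb1 encode chains of the class II molecules, Cd74 encodes the invariant chain, H2-DMa, H2-DMb1, H2-DMb2, H2-Oa and H2-Ob encode the peptide editing molecules, and Ciita encodes the transactivator. All 10 were present in the table and passed the filter on low counts, which 15159 genes passed.

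Poly(A) RNA of whole spleen was sequenced from 14 wild type female BALB/c mice, 6 to 8 weeks old, with 1 library per mouse. The control group (3 mice) had petrolatum on the back and the ears, although the series' design text calls it untreated. The imiquimod-dorsal group (4 mice) had a 5% cream of imiquimod, an agonist of Toll-like receptor 7, on the back each day for 5 days, and the imiquimod-ear group (4 mice) had the same cream on the ear for the same time. The IL23-ear group (3 mice) had 1 µg of recombinant IL-23, a cytokine that acts on type 17 T cells, injected into the skin of each ear 4 times over 7 days; no group had an injection without IL-23. The libraries are called biological replicates in the design text and carry the same batch label. A library is named below by its group and its number, such as control 2.

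Class II molecules are pairs of an alpha and a beta chain that carry peptides from the endosome to the surface of B cells, dendritic cells and macrophages, where CD4+ T cells read them. The invariant chain fills the groove until proteases trim it to a short peptide called CLIP, the DM molecule exchanges CLIP for other peptides, and the DO molecule, found mostly in B cells, holds DM back. CIITA binds no DNA itself: it joins a complex of RFX, CREB and NF-Y factors that sits on a pair of short elements, the X box and the Y box, in front of these genes. In the spleen, B cells are the most numerous class II cells.

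Of the members, 8 lie within 224 kb on chromosome 17 in GRCm39 (34311314 to 34535648, GENCODE release M39), and Ciita lies on chromosome 16 (10297923 to 10347694). Promoters of 7 members were found in the RefSeq table (build GRCm38.p6, 250 bases before to 50 bases after a start); those of H2-Ab1, Cd74 and Ciita were not matched. They are shown because the shared control element is what the family is known for. In 6 of these 7 members the letters TGATTGG, which hold the reversed CCAAT of a Y box, stood 23 to 26 letters after the letters AAC of an X box. Both sets of letters are in capitals, and each sequence is printed 5′ to 3′ on the gene's strand.
H2-Aa, chr17:34287852-34287917, minus strand: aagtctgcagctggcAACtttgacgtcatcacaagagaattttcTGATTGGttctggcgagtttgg
H2-Eb1, chr17:34305763-34305827, plus strand: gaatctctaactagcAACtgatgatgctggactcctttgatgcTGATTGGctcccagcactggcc
H2-DMb1, chr17:34153084-34153149, plus strand: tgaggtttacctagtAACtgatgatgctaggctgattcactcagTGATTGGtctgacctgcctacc
H2-DMb2, chr17:34145113-34145178, plus strand: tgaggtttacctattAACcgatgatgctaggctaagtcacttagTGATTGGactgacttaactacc
H2-Oa, chr17:34092290-34092355, plus strand: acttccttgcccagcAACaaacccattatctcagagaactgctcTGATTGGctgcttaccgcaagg
H2-Ob, chr17:34238805-34238867, plus strand: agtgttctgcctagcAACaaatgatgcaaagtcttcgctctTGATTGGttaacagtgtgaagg
The matched stretches of H2-DMb1 and H2-DMb2, neighbouring genes for near-identical beta chains, share most of their letters. TGATTGG stood on either strand in 7.82% of all 32851 promoters of 300 bases in that table, and the spaced pair of AAC and TGATTGG in 0.46%. Neither of the 2 promoters listed for H2-DMa held TGATTGG. The letters and the spacing were set with these sequences in view, so the matches describe them and are no test of binding.

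Library totals over named genes ran from 28354674 to 40289411 counts, and the smallest count of any member in any library was 1462, for H2-Oa in imiquimod-ear 3. Levels are CPM, counts relative to a library's total, after TMM scaling, a method that sets libraries to a common level over most genes. On the first principal component of log2 CPM, the imiquimod-dorsal libraries lay at 74.11 to 91.28 and the control and IL23-ear libraries at -60.77 to -33.22. Imiquimod-ear 5 lay at -30.98, beside control 5, while the other imiquimod-ear libraries lay at -4.94 to 4.42, so results of that group are given with and without it where it matters. Markers of B cells, T cells, macrophages and red cell precursors, cell types of the spleen, were detected in every library.

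Cd74, on chromosome 18 of GRCm39 (60936899 to 60945731), is the member outside these 2 chromosomes. Per kilobase of canonical transcript, it was the most abundant member in every group, with a control level of 4067 CPM per kb. The chains followed in control spleen in the order H2-Aa, H2-Ab1 and H2-Eb1, at 954, 773 and 718 CPM per kb, and then H2-DMb2 at 316 and H2-DMa at 123. H2-Ob, H2-DMb1 and H2-Oa lay at 78.3, 60.8 and 59.8, and Ciita, the regulator, was lowest at 30.5 CPM per kb. The order from Cd74 to H2-DMa was the same in all 4 groups, and the order of H2-Ob, H2-DMb1 and H2-Oa was not. Among the control libraries, H2-Ab1 overlapped with H2-Eb1 and H2-DMb1 with H2-Oa. Levels between genes carry a limit: the reference genome is of C57BL/6 mice, which carry other class II alleles than BALB/c, so reads of some genes may have been lost unequally. Comparisons of 1 gene between groups share that loss.

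**Figure D1:**
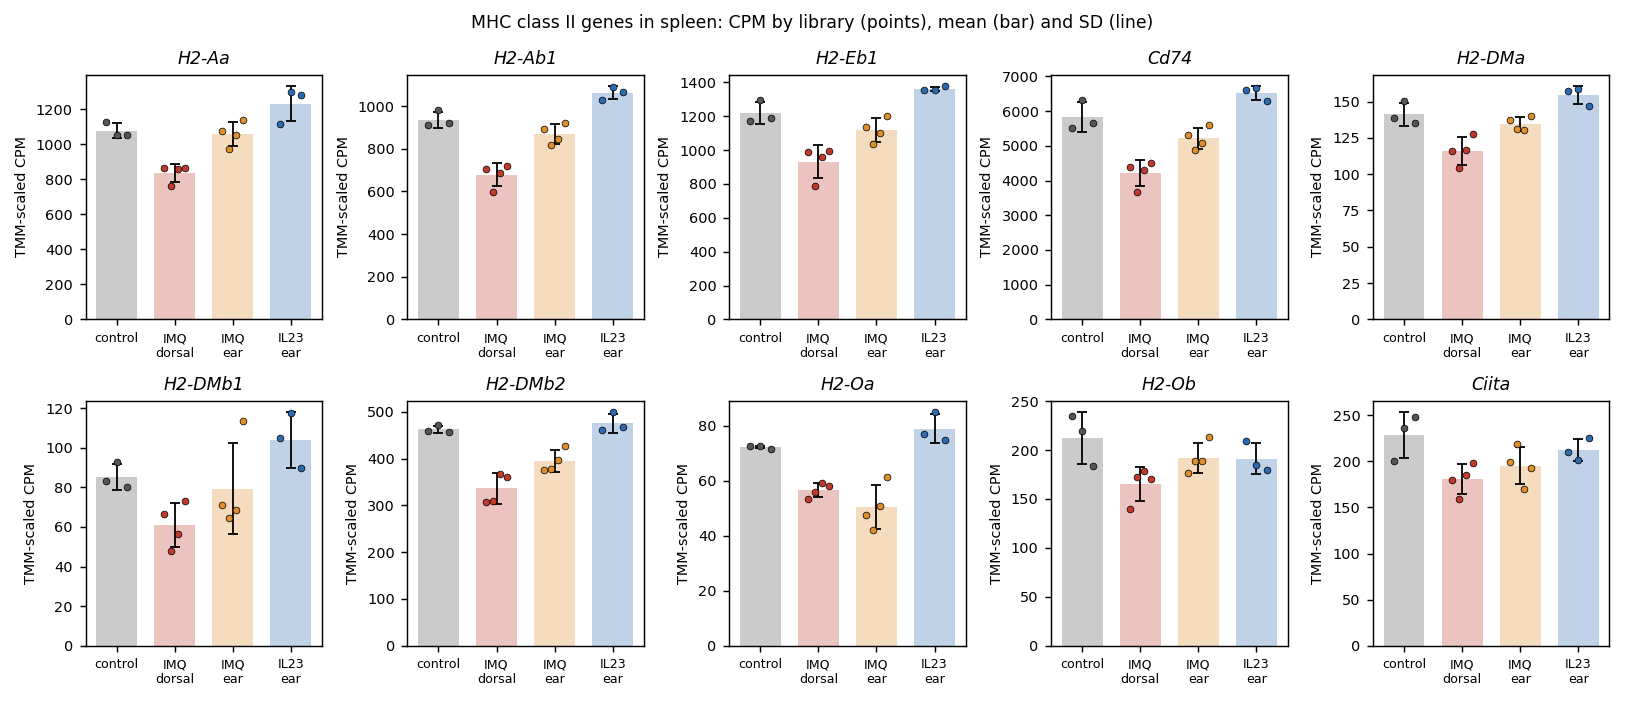
Level of each of the 10 class II genes in TMM-scaled CPM (vertical axes from 0) in the 4 groups (IMQ, imiquimod); points are libraries, bars the means and lines the SD. Imiquimod-dorsal libraries lie below all control libraries for each gene, and H2-Oa is also low in all imiquimod-ear libraries.

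Imiquimod on the back was compared with petrolatum first. All 10 members fell, with log2 fold changes of -0.49 to -0.28 and a median of -0.37, against a median of -0.00067 over all genes tested. Imiquimod-dorsal changed most of the spleen's genes: 59.8% of the 15159 genes tested were called at an adjusted p under 0.05, and 27.6% were called lower (edgeR's quasi-likelihood test, Benjamini-Hochberg adjustment over all genes tested, as for every adjusted p below unless another tool is named). For all 10 members the 4 imiquimod-dorsal libraries lay below the 3 control libraries, as they did for 28.1% of all genes tested. The largest change was that of H2-DMb1, which fell by 28.6%.

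H2-Ab1, the beta chain of the A molecule, read 910, 980 and 920 CPM in control 2, 4 and 5 and 707, 599, 687 and 721 CPM in imiquimod-dorsal 2, 3, 4 and 5. The highest imiquimod-dorsal library was well under the lowest control library. H2-Ab1 fell by 27.5%; its log2 fold change with SE was -0.46 ± 0.07 (adjusted p = 6.91e-05). Its partner H2-Aa read 1125, 1051 and 1054 CPM in the control libraries and 862, 762, 857 and 866 CPM in the imiquimod-dorsal libraries, so the groups did not overlap. H2-Aa fell by 22.3% (log2 fold change -0.36 ± 0.07, adjusted p = 0.000763). H2-Eb1, the beta chain of the E molecule, read 1174, 1294 and 1188 CPM in control spleens and 990, 788, 960 and 992 CPM after dorsal imiquimod. Imiquimod-dorsal 3 was lowest in each of these 3 chain genes, and H2-Eb1 fell by 23.5% (log2 fold change -0.39 ± 0.08, adjusted p = 0.000958). Cd74, which also has roles in B cell survival signalling, read 5502, 6311 and 5645 CPM in the control and 4379, 3663, 4307 and 4490 CPM in the imiquimod-dorsal libraries. It fell by 27.7% (log2 fold change -0.47 ± 0.08, adjusted p = 0.000133).

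The DM genes fell too. H2-DMb2 read 459, 471 and 458 CPM in the control and 307, 310, 368 and 361 CPM in the imiquimod-dorsal libraries (log2 fold change -0.46 ± 0.08, adjusted p = 0.000145). H2-DMa, the alpha chain that pairs with either DM beta chain, had the smallest fall of the 10, at -0.28 ± 0.07 (adjusted p = 0.00335). H2-DMb1 had the widest error: its 4 imiquimod-dorsal libraries read 66.5, 47.8, 56.7 and 73.0 CPM against 83.2, 92.8 and 80.2 CPM in the control libraries. Its log2 fold change was -0.49 ± 0.19 (adjusted p = 0.0416), and the call was lost without control 2, control 4, imiquimod-dorsal 3 or imiquimod-dorsal 4 (adjusted p = 0.0564, 0.0927, 0.107 and 0.0878). H2-DMb1 and H2-DMb2 are near-identical copies, and how reads that match both were counted is not given in the sources used here, so the split between them is uncertain.

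The DO genes and the transactivator were also lower. H2-Oa, the DO alpha chain, held steady among the controls at 72.5, 72.6 and 71.6 CPM and read 53.2, 55.8, 59.0 and 58.2 CPM after dorsal imiquimod (log2 fold change -0.35 ± 0.10, adjusted p = 0.0073). H2-Ob, the DO beta chain, read 234, 219 and 183 CPM in the control and 139, 172, 179 and 171 CPM in the imiquimod-dorsal libraries (log2 fold change -0.36 ± 0.10, adjusted p = 0.00848). Control 5, at 183 CPM, was only just above the highest imiquimod-dorsal library. Ciita read 200, 237 and 248 CPM in the control and 180, 159, 185 and 199 CPM in the imiquimod-dorsal libraries (log2 fold change -0.34 ± 0.10, adjusted p = 0.00954). The groups for Ciita touched almost, at 199 and 200 CPM. The library kit marks no strand, and 32.8% of the H2-Oa transcript, 20.3% of H2-DMb1, 7.7% of H2-Eb1 and 5.5% of Ciita overlap genes on the opposite strand; of these genes only Dexi, which overlaps Ciita, has its own row in the table.

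In a bulk sample, fewer cells of a type and less RNA per cell cannot be told apart, and dorsal imiquimod changed the makeup of spleen RNA. The marker counts given next stand beside 59.8% of all genes called in imiquimod-dorsal and 27.6% called lower. Red cell precursor markers summed to 85881 to 143066 CPM in the imiquimod-dorsal libraries against 12320 to 38938 CPM in the control libraries, and all 15 of them rose, with Tfrc at 3.81 ± 0.41 and Epor at 3.20 ± 0.53 (adjusted p = 1.18e-05 and 0.000283). All 12 neutrophil markers rose, with Retnlg at 4.27 ± 0.57 and Elane at 3.89 ± 0.59 (adjusted p = 4.47e-05 and 0.000136). All 12 T cell markers fell (median log2 fold change -2.52), with Cd28 at -2.32 ± 0.16 and Il7r at -3.73 ± 0.24 (adjusted p = 5.62e-07 for both). Of 10 plasma cell markers Slamf7 fell and Fkbp11 rose, at -1.56 ± 0.19 and 0.88 ± 0.23 (adjusted p = 1.63e-05 and 0.0051). Over the same libraries the 14 B cell markers summed to 4326 to 5226 CPM against 5697 to 5948 CPM in controls, and none was at 0. Of the B cell markers 4 fell and 1 rose, with a median of -0.16; Cr2, complement receptor 2, changed by -1.45 ± 0.14 (adjusted p = 2.94e-06) and Cd37 by -0.38 ± 0.07 (adjusted p = 0.000217), while Ms4a1, which encodes CD20, was at -0.07 ± 0.08 (adjusted p = 0.454).

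Conventional dendritic cell markers, the list of the cells with the most class II per cell, fell in 12 of 14 cases (median -1.32). Ccr7, a homing receptor, was at -1.50 ± 0.11 (adjusted p = 5.62e-07). Zbtb46, a defining factor of these cells, was at -0.09 ± 0.15 (adjusted p = 0.65). Cd24a, which red cell precursors also express, rose by 3.12 ± 0.26 (adjusted p = 1.58e-06) and lifted the list's sum from 820 to 871 CPM in controls to 2817 to 3740 CPM. Of 8 plasmacytoid dendritic cell markers 5 fell and 1 rose; Bst2 and Siglech were at -2.48 ± 0.26 and -1.01 ± 0.17 (adjusted p = 6.38e-06 and 0.000201). Of 12 macrophage markers 1 fell, Siglec1, at -1.68 ± 0.19 (adjusted p = 8.92e-06), and 1 rose, Adgre1, at 0.59 ± 0.19 (adjusted p = 0.0183). The part of these shifts in the class II falls was not tested cell type by cell type.

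The libraries were also scaled to the geometric mean of their 14 B cell markers in place of TMM, an alternative chosen after the data had been seen. All 10 members were still at negative values in imiquimod-dorsal, from -0.22 to -0.02, and 3 of the 10 were called lower. These were Cd74 at -0.20 ± 0.07 (adjusted p = 0.0251), H2-DMb2 at -0.20 ± 0.07 (adjusted p = 0.0296) and H2-Ab1 at -0.20 ± 0.08 (adjusted p = 0.0331). Ciita, at -0.07 ± 0.11 (adjusted p = 0.6), and H2-DMa, at -0.02 ± 0.08 (adjusted p = 0.862), were among the 7 that did not pass. This scaling moved the median of all genes to 0.27, and the members' median, at -0.11, lay 0.38 below it. A change of scaling moves all genes nearly alike. The distance is therefore close to that under TMM by construction and is no check on the falls. The yardstick itself holds genes that fell, such as Cr2.

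**Figure D2:**
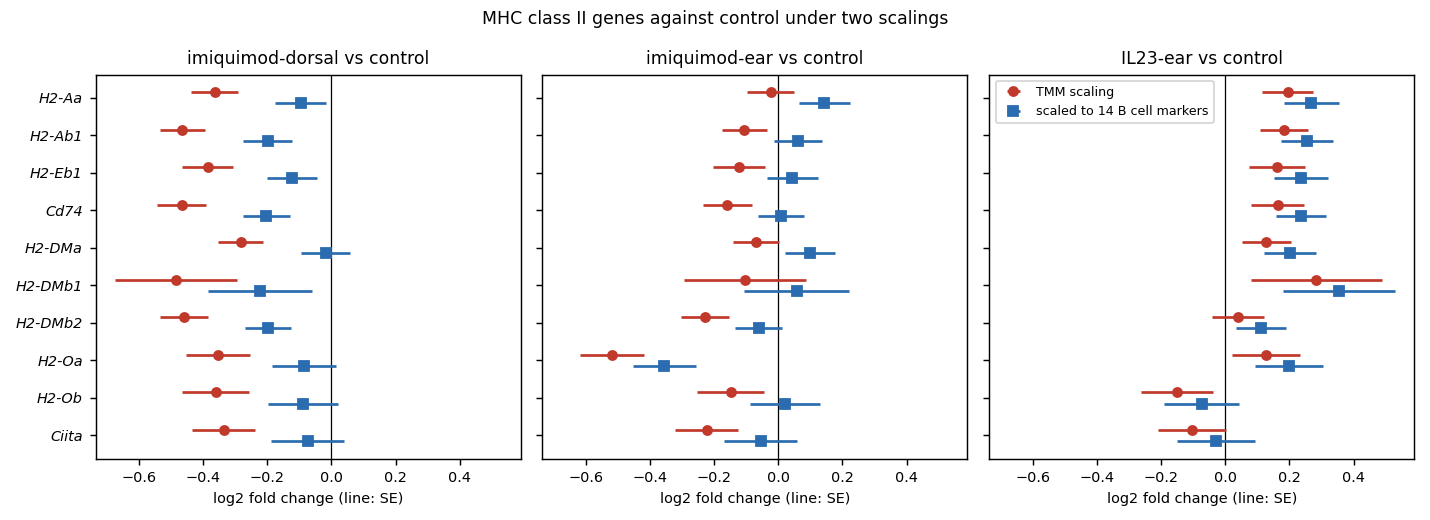
Log2 fold change against control (horizontal axes; lines, SE) of each class II gene under TMM scaling (red circles) and with libraries scaled to 14 B cell markers (blue squares). Under the B cell scaling the imiquimod-dorsal values lie between -0.22 and -0.02, and H2-Oa stays at -0.35 in imiquimod-ear.

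After imiquimod on the ear H2-Oa and H2-DMb2 fell, and the other 8 members did not pass the test. The members' median was -0.14, and 21.2% of all genes tested were called and 6.98% were called lower. H2-Oa read 47.6, 42.0, 50.8 and 61.2 CPM in imiquimod-ear 1, 3, 4 and 5, all under the control libraries at 71.6 to 72.6 CPM, an arrangement seen in 11% of all genes tested. It fell by 30.2% (log2 fold change -0.52 ± 0.10, adjusted p = 0.0046). Imiquimod-ear 5 was nearest to the controls, and without it the value was -0.66 ± 0.08 (adjusted p = 0.000168). H2-Oa was also called with libraries scaled to B cell markers (-0.35 ± 0.10, adjusted p = 0.0171).

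The other call was H2-DMb2, at 377, 379, 397 and 427 CPM against 458 to 471 CPM in controls. Its log2 fold change of -0.23 ± 0.08 (adjusted p = 0.046) rested on the threshold, since leaving out any 1 of control 2, 4 and 5 or imiquimod-ear 1, 3 and 4 took it above 0.05 (adjusted p = 0.0511 to 0.105). The chain genes overlapped with the controls: H2-Aa was at 1077, 970, 1052 and 1136 CPM and H2-Ab1 at 894, 818, 847 and 922 CPM. Their log2 fold changes were -0.02 ± 0.07 and -0.11 ± 0.07 (adjusted p = 0.845 and 0.299), and H2-Eb1 was at -0.12 ± 0.08 (adjusted p = 0.297). Cd74 read 5299, 4866, 5085 and 5595 CPM; its change of -0.16 ± 0.08 (adjusted p = 0.153) passed without imiquimod-ear 5 (-0.23, adjusted p = 0.0299). H2-Ob, the partner of H2-Oa, read 177, 188, 188 and 213 CPM and overlapped the controls (-0.15 ± 0.10, adjusted p = 0.332). H2-DMb1 read 70.9, 64.4 and 68.6 CPM in imiquimod-ear 1, 3 and 4 and 114 CPM in imiquimod-ear 5, and its change was -0.10 ± 0.19 (adjusted p = 0.727), or -0.37 ± 0.14 (adjusted p = 0.0531) without imiquimod-ear 5. Ciita read 199, 218, 170 and 193 CPM and did not pass (-0.22 ± 0.10, adjusted p = 0.123). Without imiquimod-ear 5 the members called were H2-Oa, H2-DMb2 and Cd74, and the other 7 had values of -0.37 to -0.10. Genes called over the whole table ran from 1066 to 4976 in the leave-one-out fits, against 3219 with all libraries.

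Plasma cells, which arise from B cells, are known for low class II expression. The marker counts given next stand beside 21.2% of all genes called in imiquimod-ear and 6.98% called lower. All 10 plasma cell markers were called higher in imiquimod-ear, with a median of 1.56 and sums of 4109 to 6810 CPM against 1853 to 2109 CPM. Fkbp11 and Sdc1, a folding enzyme and the plasma cell surface proteoglycan CD138, were at 2.37 ± 0.24 and 1.30 ± 0.15 (adjusted p = 0.000511 and 0.00078). B cell markers summed to 4988 to 5373 CPM, below the 5697 CPM of the lowest control library, with 4 called lower, among them Ebf1 at -0.43 ± 0.08 and Cd22 at -0.31 ± 0.08 (adjusted p = 0.00498 and 0.0134), and 1 called higher. Of the conventional dendritic cell markers 1 fell, Clec4a4 (-0.94 ± 0.31, adjusted p = 0.0438), and 1 rose, Cd24a (1.06 ± 0.24, adjusted p = 0.00927). Plasmacytoid dendritic cell markers fell in 3 of 8 cases, with Siglech at -0.81 ± 0.17 and Bst2 at -1.08 ± 0.25 (adjusted p = 0.0068 and 0.0108). Of 12 macrophage markers 3 fell, among them Siglec1 and C1qc (-1.09 ± 0.19 and -0.61 ± 0.18, adjusted p = 0.00352 and 0.0296). Of 12 T cell markers 2 fell, Il7r and Cd8a (-0.96 ± 0.22 and -0.75 ± 0.24, adjusted p = 0.0102 and 0.0449), and 8 of 12 neutrophil markers rose, with Elane and Mpo at 3.08 ± 0.57 and 2.89 ± 0.57 (adjusted p = 0.00499 and 0.00629). No red cell precursor marker was called. The part of these shifts in the level of H2-Oa was not tested. The B cell scaling above moves all genes nearly alike and is no test of it.

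IL-23 in the ear gave no called class II gene, in a comparison where 8 of 15159 genes, 0.0528%, were called and 1305 had an unadjusted p under 0.05. The means of H2-Aa, H2-Ab1, H2-Eb1 and Cd74 stood slightly above those of the controls as values. H2-Aa, at 1118 to 1298 CPM against 1051 to 1125 CPM, overlapped with the control libraries. So did Cd74, at 6289 to 6657 CPM against 5502 to 6311 CPM. H2-Ab1 read 1030, 1091 and 1066 CPM in IL23-ear 1, 2 and 3, all above the highest control library at 980 CPM, and H2-Eb1 read 1356, 1353 and 1378 CPM against at most 1294 CPM. H2-Oa, at 77.1, 84.7 and 74.7 CPM, was the third member whose IL23-ear libraries were all above the controls, an arrangement seen in 9.75% of all genes tested. The log2 fold changes were 0.18 ± 0.07 for H2-Ab1, 0.16 ± 0.09 for H2-Eb1 and 0.13 ± 0.11 for H2-Oa (adjusted p = 0.503, 0.659 and 0.801). Of the other members, 5 had values above 0, up to 0.28 ± 0.20 for H2-DMb1 (adjusted p = 0.763), and H2-Ob and Ciita had values below 0, at -0.15 ± 0.11 and -0.10 ± 0.11 (adjusted p = 0.774 and 0.845).

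**Figure D3:**
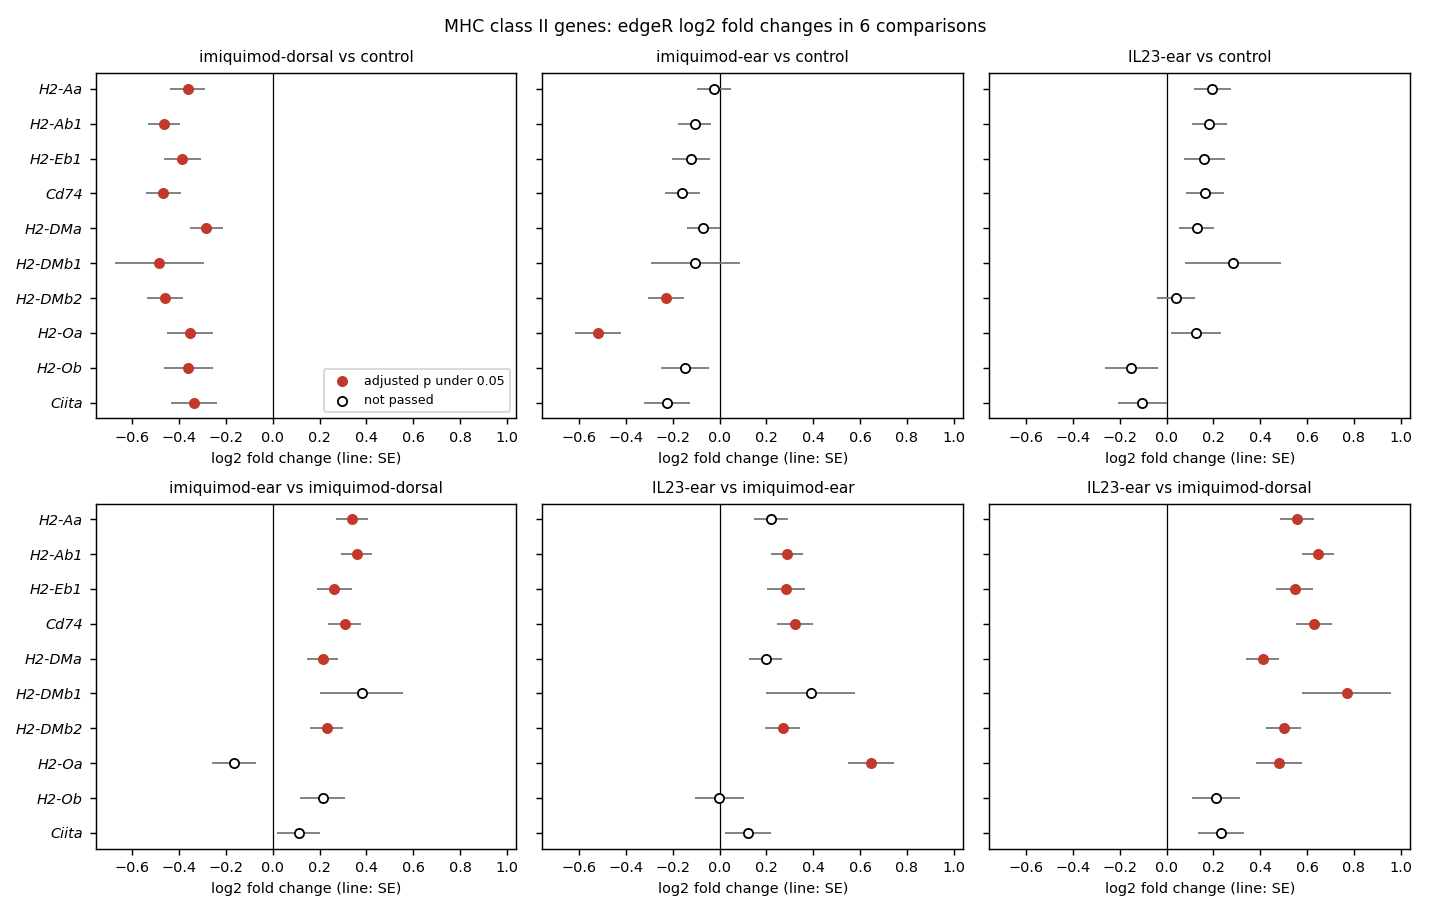
Log2 fold change (horizontal axes; lines, SE) of each class II gene in the 6 comparisons; filled points passed an adjusted p under 0.05. All 10 are filled on the left of 0 for imiquimod-dorsal, 2 for imiquimod-ear and none for IL23-ear, and 8 are filled on the right of 0 for IL23-ear against imiquimod-dorsal.

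The 2 sites of imiquimod treatment were compared directly. Of the members 6 were higher in imiquimod-ear than in imiquimod-dorsal and none was lower, where 47.7% of all genes tested were called, 23.3% were called higher and 24.5% lower. The 6 were H2-Aa (0.34 ± 0.07, adjusted p = 0.00117), H2-Ab1 (0.36 ± 0.06, adjusted p = 0.000545), H2-Eb1 (0.26 ± 0.07, adjusted p = 0.0106), Cd74 (0.31 ± 0.07, adjusted p = 0.00292), H2-DMa (0.21 ± 0.07, adjusted p = 0.0156) and H2-DMb2 (0.23 ± 0.07, adjusted p = 0.0151). For each of these the imiquimod-ear libraries were all above the imiquimod-dorsal libraries, as they were for 19.8% of all genes tested. H2-Oa was the member with a negative value, at -0.17 ± 0.09 (adjusted p = 0.156), and it was called lower in imiquimod-ear without imiquimod-ear 5 (-0.26 ± 0.07, adjusted p = 0.011) and with libraries scaled to B cell markers (-0.27 ± 0.09, adjusted p = 0.0277). On that scaling 3 members were called higher, and with upper quartile scaling or library totals 9 were, with H2-DMb1, H2-Ob and Ciita added (adjusted p = 0.0301, 0.0106 and 0.025 with upper quartile). Genes called over the whole table, in either direction, were 6521 with B cell scaling, 8063 with upper quartile and 8677 with library totals.

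The 2 treatments of the ear skin were compared next, and 5 members were higher in IL23-ear than in imiquimod-ear, where 17.3% of all genes were called and 7.05% were called higher. H2-Oa had the largest difference, at 0.65 ± 0.10 (adjusted p = 0.00176), with 74.7 to 84.7 CPM in IL23-ear and 42.0 to 61.2 CPM in imiquimod-ear. Cd74, H2-Ab1, H2-Eb1 and H2-DMb2 differed by 0.32 ± 0.08, 0.29 ± 0.07, 0.28 ± 0.08 and 0.27 ± 0.08 (adjusted p = 0.0128, 0.0145, 0.0295 and 0.0286). H2-Ob did not pass, at -0.0023 ± 0.10 (adjusted p = 0.99). Without imiquimod-ear 5 the count was 8, with H2-Aa (0.28, adjusted p = 0.0125), H2-DMa (0.24, adjusted p = 0.0251) and H2-DMb1 (0.64, adjusted p = 0.00397) added. It was 3 without imiquimod-ear 1, 3 or 4 or IL23-ear 2 or 3. Calls over the whole table moved too, from 2622 with all libraries to 4462 without imiquimod-ear 5, and to as few as 1101 in the other leave-one-out fits. With libraries scaled to B cell markers the members called were 2, Cd74 (0.23, adjusted p = 0.0477) and H2-Oa (0.55, adjusted p = 0.00287). On that scaling 2053 genes over the whole table were called in either direction.

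IL23-ear was also compared with imiquimod-dorsal. Of the members 8 were higher in IL23-ear, where 57.1% of all genes were called and 27.1% were called higher, and the members' median was 0.52. The largest difference was that of H2-DMb1, at 0.77 ± 0.19 (adjusted p = 0.00363), followed by H2-Ab1 at 0.65 ± 0.07 and Cd74 at 0.63 ± 0.08 (adjusted p = 4.41e-06 and 1.07e-05). H2-Ob and Ciita did not pass (0.21 ± 0.10 and 0.23 ± 0.10, adjusted p = 0.0995 and 0.0584). Ciita lay near the threshold: it passed under 8 of 11 alternatives, among them DESeq2 (0.25, adjusted p = 0.0339) and RLE (0.25, adjusted p = 0.0418), but not with limma-voom (0.24, adjusted p = 0.0563), the replicate block (0.25, adjusted p = 0.112) or libraries scaled to B cell markers (0.044, adjusted p = 0.762). The count was 10 with upper quartile scaling, library totals or the 2 groups alone, and 8 with B cell scaling. Genes called over the whole table, in either direction, were 9275, 9633, 8738 and 8278 in that order.

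Summed over the 10 members, class II transcripts made up 1.13% ± 0.06 of named counts in control (SD, n = 3), 0.662% ± 0.074 in imiquimod-dorsal (n = 4), 0.956% ± 0.093 in imiquimod-ear (n = 4) and 1.20% ± 0.02 in IL23-ear (n = 3). In TMM-scaled CPM the sum was 9899 to 10877 in control, 6661 to 8059 in imiquimod-dorsal, 8712 to 10004 in imiquimod-ear and 11197 to 11646 in IL23-ear libraries. Imiquimod-dorsal and IL23-ear did not overlap with any other group on this sum, and imiquimod-ear overlapped with control. The summed CPM of H2-Aa, H2-Ab1, H2-Eb1 and Cd74 over that of the B cell markers was 1.47 to 1.62 in control, 1.30 to 1.48 in imiquimod-dorsal, 1.54 to 1.65 in imiquimod-ear and 1.75 to 1.80 in IL23-ear libraries. On that ratio IL23-ear stood above all other libraries, and imiquimod-dorsal overlapped with control through imiquimod-dorsal 2. These sums and ratios are descriptions without a test.

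**Figure D4:**
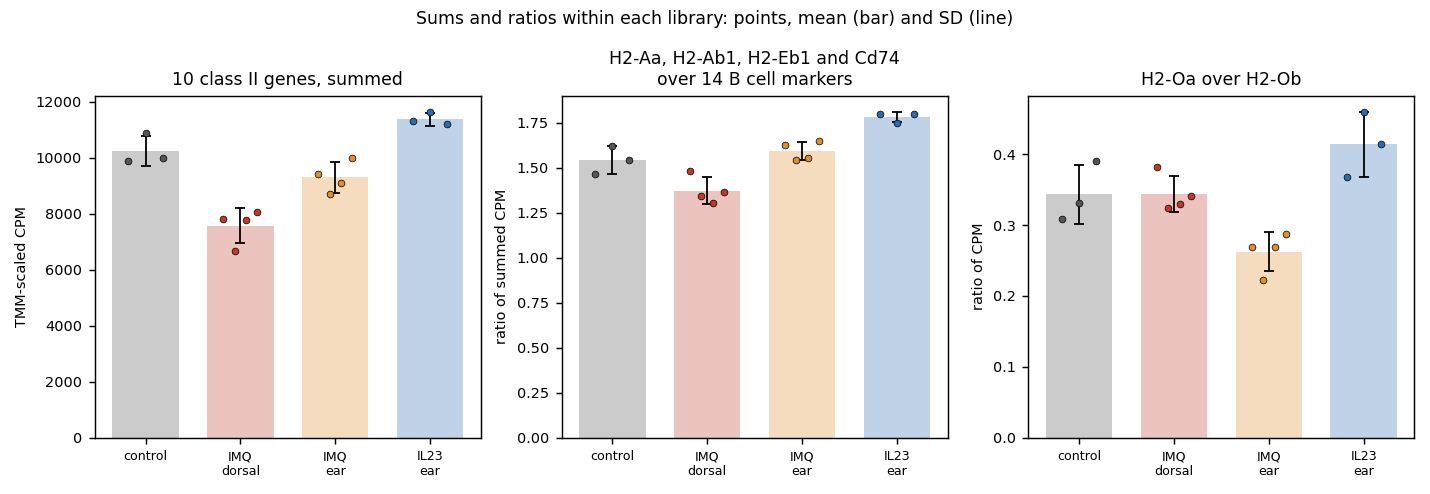
Sum of the 10 class II genes in TMM-scaled CPM, ratio of 4 chain genes to 14 B cell markers, and ratio of H2-Oa to H2-Ob (vertical axes from 0; IMQ, imiquimod); points are libraries, bars the means and lines the SD. IL23-ear libraries are highest in the first 2 panels, and the imiquimod-ear libraries, at 0.223 to 0.287, are lowest in the third.

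The chains of DO were set against each other. H2-Oa over H2-Ob, both in CPM, was 0.309 to 0.390 in control, 0.324 to 0.381 in imiquimod-dorsal, 0.223 to 0.287 in imiquimod-ear and 0.368 to 0.459 in IL23-ear libraries, so that all imiquimod-ear libraries lay below every other library. This ratio was not among the planned measures. It reuses the H2-Oa values already called lower in imiquimod-ear, so its separation is no further support. How often ratios of other genes separate the groups in this way was not counted. The balance of editing genes showed less: H2-Oa and H2-Ob over the 3 DM genes was 0.413 ± 0.036 in control, 0.434 ± 0.044 in imiquimod-dorsal, 0.397 ± 0.009 in imiquimod-ear and 0.369 ± 0.025 in IL23-ear, and the ranges of neighbouring groups overlapped. H2-DMb1 over H2-DMb2 was 0.175 to 0.197 in control and 0.154 to 0.217 in imiquimod-dorsal libraries, with its highest value, 0.266, in imiquimod-ear 5. Ciita over the 4 chain genes was 0.0230 to 0.0281 in control, 0.0260 to 0.0281 in imiquimod-dorsal, 0.0211 to 0.0284 in imiquimod-ear and 0.0194 to 0.0225 in IL23-ear libraries. Control and IL23-ear did not overlap on it, but neither Ciita nor any chain gene was called between them. The H2-DMb1 and Ciita ratios were not among the planned measures either and carry no test.

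H2-Ea and H2-Eb2, class II genes outside the 10, were read beside them. H2-Ea, the alpha chain that pairs with H2-Eb1, has a promoter deletion in C57BL/6 mice but is expressed in BALB/c, and it was counted here at 1266 to 1440 CPM in control libraries. It fell in imiquimod-dorsal (1192, 1040, 1218 and 1242 CPM; log2 fold change -0.22 ± 0.07, adjusted p = 0.0146) and not detectably in imiquimod-ear (-0.04 ± 0.07, adjusted p = 0.723). In IL23-ear against control H2-Ea was at 0.0081 ± 0.07 (adjusted p = 0.988). H2-Ea over H2-Eb1 was 1.20 to 1.32 in imiquimod-dorsal, 0.993 to 1.03 in IL23-ear libraries and 1.07 to 1.23 in control libraries. That ratio was not among the planned measures and carries no test. H2-Eb2, a beta chain gene of low level, read 11.7 to 14.6 CPM in control and 13.8 to 20.6 CPM in imiquimod-ear libraries (0.30 ± 0.16, adjusted p = 0.19).

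Genes that act on class II expression moved in both directions after dorsal imiquimod. Of 21 listed factors of the promoter complex and inducers or repressors of Ciita, 10 fell and 5 rose, with a median of -0.29. In the same comparison 59.8% of all genes tested were called and 27.6% were called lower. Irf1, an interferon-induced activator of transcription, was at -1.02 ± 0.20 (adjusted p = 0.000669). Ifng, which encodes interferon gamma, was at about 1 CPM in control and fell (-1.13 ± 0.41, adjusted p = 0.0275). The IL-4 receptor chain Il4ra, which raises class II in B cells, was at -1.10 ± 0.10 (adjusted p = 1.55e-06), and Irf4, a B cell factor, at -1.14 ± 0.15 (adjusted p = 2.21e-05). NF-Y and RFX subunits went the other way or did not pass: Nfyb rose (0.79 ± 0.08, adjusted p = 2.24e-06), as did Rfxap (0.53 ± 0.10, adjusted p = 0.00068), while Rfx5 was at -0.27 ± 0.12 (adjusted p = 0.0615) and Rfxank at -0.07 ± 0.07 (adjusted p = 0.388). Of the myeloid and B cell factors, Spi1 rose (0.29 ± 0.11, adjusted p = 0.0317) and Irf8 did not pass (0.12 ± 0.17, adjusted p = 0.587).

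In imiquimod-ear 4 of these 21 genes fell and 2 rose, with a median of -0.01. There 21.2% of all genes tested were called and 6.98% were called lower. Of the 21, those that rose, Prdm1 and Irf4, act in plasma cell formation, and Prdm1 encodes a repressor of Ciita. Prdm1 went from a mean of 14.2 CPM in control to 36.2 CPM (1.35 ± 0.24, adjusted p = 0.00372), and Irf4 from 131 to 217 CPM (0.72 ± 0.15, adjusted p = 0.00618). Rfx5 was among those that fell (-0.38 ± 0.12, adjusted p = 0.0332). No gene of this list, nor of any other list here, was called in IL23-ear against control.

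Genes that trim the invariant chain or turn class II proteins over were split. Of 17 listed, 5 fell and 6 rose in imiquimod-dorsal (median 0.05), and 3 fell and 2 rose in imiquimod-ear (median 0.02). Of all genes tested, 59.8% were called in imiquimod-dorsal, with 27.6% lower, and 21.2% in imiquimod-ear, with 6.98% lower. Ctss, the protease that makes CLIP in B cells, had means of 510 CPM in control, 329 CPM in imiquimod-dorsal and 374 CPM in imiquimod-ear (-0.63 ± 0.10 and -0.45 ± 0.10, adjusted p = 7.89e-05 and 0.00713). Sppl2a, which clears the last piece of the invariant chain from the membrane, also fell in both (-0.27 ± 0.08 and -0.40 ± 0.08, adjusted p = 0.00752 and 0.0048). So did Marchf1, the ubiquitin ligase that removes class II molecules from the surface (-0.53 ± 0.10 and -0.32 ± 0.10, adjusted p = 0.000484 and 0.0393). Its relative Marchf8 rose in imiquimod-dorsal, from a mean of 36.1 to 301 CPM (3.06 ± 0.33, adjusted p = 1.03e-05), with the red cell precursor markers, and Ctsd, a lysosomal protease, rose by 0.93 ± 0.09 (adjusted p = 2.61e-06). Ifi30, a reductase of the endosome, did not pass in imiquimod-dorsal (0.03 ± 0.08, adjusted p = 0.722).

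Costimulatory genes encode the ligands that stand beside class II at the cell surface. Of 9 tested, 6 fell and 1 rose in imiquimod-dorsal, with a median of -0.83, and 2 fell in imiquimod-ear. Cd70 did not pass the filter on low counts. Called lower over all genes tested were 27.6% in imiquimod-dorsal and 6.98% in imiquimod-ear. Cd86 had means of 88.3 CPM in control, 41.1 CPM in imiquimod-dorsal and 65.8 CPM in imiquimod-ear (-1.10 ± 0.10 and -0.42 ± 0.10, adjusted p = 1.33e-06 and 0.00881). Icosl, the ligand of ICOS on T cells, fell in both as well (-1.04 ± 0.17 and -0.78 ± 0.17, adjusted p = 0.000194 and 0.00845). The gene that rose in imiquimod-dorsal was Cd83, whose product keeps class II and CD86 at the surface (0.92 ± 0.23, adjusted p = 0.00423).

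Across the 14 libraries, the profile of the chains was followed closely by some genes and loosely by others. Closeness was measured as the root mean square difference between centred log2 CPM profiles, over 10278 genes whose log2 CPM averaged 3 or more, where the mean profile of H2-Aa, H2-Ab1, H2-Eb1 and Cd74 itself has a size of 0.232. H2-DMa and H2-DMb2 lay at 0.0818 and 0.0894 from it, Ciita at 0.177, H2-DMb1 at 0.188, H2-Ob at 0.203 and H2-Oa at 0.227. The nearest genes outside the members were Casp8 (0.0554), Arf3 (0.0580), Cmtm6 (0.0586), Zfp952 (0.0643), Stx4a (0.0643) and Stard3 (0.0653). Nearest to Ciita, whose own profile has a size of 0.170, were Gopc (0.0842), Prrc2c (0.0891), Nsd1 (0.0903), Gcn1 (0.0907), Akap9 (0.0912) and Myo1e (0.0913). These distances rest on the same libraries and scaling for all genes and carry no test.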

How the data were processed

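Whole spleen RNA was poly(A) selected, made into non-stranded libraries and sequenced from both ends with reads of 150 bases, per the labels' protocols. The authors deposited raw read counts per gene, with no normalization, as the whole numbers in the table show. The submitters' processing notes name fastp 0.23.2, HISAT2 2.2.1, featureCounts 2.0.3, StringTie 2.2.1, DESeq2 1.38.3 and the build GRCm39, with neither role nor setting; for the annotation and the counting of reads that match several places, the answer is not given in the sources used here. The table has 22740 entries. Left out were 624 assembled loci without a gene name, which held 0.484% to 0.674% of the counts of a library. Of 529 entries without a symbol, 520 were named from GENCODE M39.

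The test was edgeR's robust quasi-likelihood test (version 4.0.16, R 4.3.3), with TMM scaling (factors 0.835 to 1.1) and filterByExpr at a minimum count of 10. A joint model of the 14 libraries left 10 residual degrees of freedom, and the common biological coefficient of variation was 18.7%. Benjamini-Hochberg adjustment ran over the 15159 genes tested, and 0.05 was the threshold. The fit was also run on simulated counts in which few genes changed. That run does not check the scaling or the error rate under a shift as broad as that of imiquimod-dorsal. Values are log2 fold change ± SE, and mean ± SD for groups. The 10 members and the gene lists were chosen with earlier results of these data known. All members are named; from the other lists, the text names the 2 called genes with the smallest adjusted p in each comparison of imiquimod with control, and a fixed set of regulators, endosomal and marker genes whatever their result, of which some are not reported here. Alternatives were DESeq2 1.42.0, limma-voom (limma 3.58.1), other scalings and filters, the compared groups alone, a replicate block, each library left out, and the scaling to B cell markers, which was chosen after seeing the data.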

Additional observations from a re-analysis of the deposited data

Results flagged for a closer look

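Of 42 sets of 4 libraries compared, 4 held a library far from the other 3, by the gap to its nearest neighbour as a share of the whole range (Dixon's test); chance marks about 1 in 20. H2-Aa in imiquimod-dorsal 3, at 762 CPM, stood under the other 3 imiquimod-dorsal libraries at 857 to 866 CPM (share 0.911). H2-Eb1 in the same library, at 788 CPM, stood under 960 to 992 CPM (share 0.843). H2-DMb1 in imiquimod-ear 5, at 114 CPM, stood above 64.4 to 70.9 CPM (share 0.868). The ratio of H2-Oa and H2-Ob to the 3 DM genes in imiquimod-ear 1, at 0.384, stood just under 0.401 to 0.403 (share 0.924).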

How the results depend on the processing

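Under 11 alternatives other than leaving libraries out, 597 single-gene values kept their direction and their side of the threshold, 18 no longer passed, 26 newly passed and 19 changed sign. Scaling moved levels: against control, the members' median in imiquimod-dorsal was -0.60 with upper quartile scaling, -0.71 with library totals alone and -0.11 with B cell scaling, while the median of all genes moved to -0.23, -0.33 and 0.27. In imiquimod-ear it was -0.21, -0.24 and 0.033, a change of sign that came with all-gene medians of -0.051, -0.081 and 0.19, in IL23-ear 0.11, 0.085 and 0.22, in imiquimod-ear against imiquimod-dorsal 0.41, 0.48 and 0.15 and in IL23-ear against imiquimod-dorsal 0.72, 0.80 and 0.33; in IL23-ear against imiquimod-ear it was 0.18 with B cell scaling. These scalings move all genes together: under TMM and B cell scaling alike, the members' median minus that of all genes was -0.37 and -0.38 in imiquimod-dorsal, -0.16 and -0.16 in imiquimod-ear and 0.13 and 0.13 in IL23-ear. In imiquimod-ear against imiquimod-dorsal, 9 members were called higher with upper quartile scaling and with library totals, and in IL23-ear against imiquimod-dorsal 9 to 10 were under 8 of the 11 alternatives. With B cell scaling the members called lower were 3 in imiquimod-dorsal and 1 in imiquimod-ear, those called in imiquimod-ear against imiquimod-dorsal were 3 higher and 1 lower, and 2 were higher in IL23-ear against imiquimod-ear. On the same scaling, genes called over the whole table in these comparisons were 8789, 3835, 6521 and 2053. Imiquimod-ear values against control turned positive there for H2-Aa (0.14), H2-Ab1 (0.061), H2-Eb1 (0.044), Cd74 (0.0078), H2-DMa (0.10), H2-DMb1 (0.057) and H2-Ob (0.022).

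With only the 2 groups compared, 1126 genes and 1 member were called in imiquimod-ear and 1247 genes in IL23-ear against imiquimod-ear. In IL23-ear against control, where the fit called 8 genes, DESeq2 called 132, limma-voom 15 and a minimum count of 50 gave 15, while RLE, upper quartile, library totals, haemoglobin and immunoglobulin genes taken out, no filter, the 2 groups alone, the replicate block and B cell scaling each gave 0. Values near 0 changed sign: H2-DMb2 in IL23-ear was -0.020 with library totals and -0.011 without IL23-ear 2 (-0.011 to 0.051 over all leave-one-out fits), and H2-Oa in imiquimod-ear against imiquimod-dorsal was 0.073 with library totals. H2-Ob in IL23-ear against imiquimod-ear was 0.012 with DESeq2 and with RLE, 0.035 with upper quartile, 0.039 with library totals, 0.017 with no filter, 0.020 with a minimum count of 50 and 0.0048 with the 2 groups alone, and -0.052 to 0.076 in the leave-one-out fits.

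Replicate numbers did not pair the libraries: deviations of the 13 same-numbered pairs had a mean correlation of -0.038 (-0.241 to 0.183). With the replicate block, 311 genes and 0 members were called in imiquimod-ear against control, with H2-Oa at an adjusted p of 0.0515, and 1261 genes in IL23-ear against imiquimod-ear; the members' median in IL23-ear against control was 0.25, and H2-Aa (0.045) and H2-DMb1 (0.023) in imiquimod-ear and H2-Ob (0.028) in IL23-ear against imiquimod-ear turned positive.

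Leaving out each library in turn, the members called lower were 9 to 10 in imiquimod-dorsal and 1 to 3 in imiquimod-ear, and those higher 6 to 7 (with 0 to 1 lower) in imiquimod-ear against imiquimod-dorsal, 3 to 8 in IL23-ear against imiquimod-ear and 8 to 10 in IL23-ear against imiquimod-dorsal. Genes called were 8023 to 9292 in imiquimod-dorsal, 1066 to 4976 in imiquimod-ear, 0 to 12 in IL23-ear and 1101 to 4462 in IL23-ear against imiquimod-ear, the highest without imiquimod-ear 5. The members' medians were -0.48 to -0.36, -0.24 to -0.12 and 0.11 to 0.16 against control, 0.21 to 0.30 in imiquimod-ear against imiquimod-dorsal, 0.27 to 0.34 in IL23-ear against imiquimod-ear and 0.47 to 0.58 in IL23-ear against imiquimod-dorsal. The causes were not tested. Every member had at least 1462 counts in each library.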
